A study of Rattus norvegicus with 4 samples.

Results

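The genes that decide what becomes of pyruvate were examined in INS-1 cells grown as a monolayer or in a bioprinted hydrogel. Members were chosen as genes of pyruvate fate, by a rule that uses no measured value: Pkm, Ldha, Ldhb, Slc16a1, Slc16a3, Pdk1, Pdk2, Pdk3 and Pdk4, 9 of the 23360 gene symbols listed. All 9 had a value in every sample. INS-1 832/3 cells are a rat insulinoma clone that secretes insulin in response to glucose and carries an added human insulin gene. Both groups were grown in RPMI-1640 with fetal serum and Geneticin, to which sodium pyruvate was added as 1% of a 100 mM stock, so extracellular pyruvate was supplied to all cells. The 2D group was a standard monolayer culture. The 3D group was bioprinted in GelXA LAMININK 411, a gelatin methacrylate blend with laminin-411, in which the cells gather into clusters termed pseudoislets. Printing included extrusion under pressure and UV crosslinking, and these steps cannot be told apart from culture in the gel. RNA was taken on day 5 at passage 3, from 2 cultures per group labelled as biological replicates. The cells are a single tumor-derived clone and not primary beta-cells.

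Pyruvate kinase makes pyruvate at the last step of glycolysis. Pkm encodes the muscle-type enzyme and Pklr the liver-type enzyme. Lactate dehydrogenase, built from the subunits of Ldha and Ldhb, interconverts pyruvate and lactate, and the monocarboxylate transporters MCT1 (Slc16a1) and MCT4 (Slc16a3) carry lactate and pyruvate across the plasma membrane. Within mitochondria, the pyruvate dehydrogenase (PDH) complex turns pyruvate into acetyl-CoA, and the PDH kinases encoded by Pdk1 to Pdk4 inactivate it by phosphorylation. Ldha and Slc16a1 belong to the genes known as disallowed in beta-cells, since they are repressed there while most other tissues express them. Ldha, Pdk1, Slc16a3 and Pkm are also textbook targets of the hypoxia-inducible factor HIF-1.

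The promoters of 4 members are shown because these genes gave the contrasting results, with Ldha almost without transcript, Pkm and Pdk1 higher and Pdk3 lower in 3D culture. The sequences are those of RefSeq on the GRCr8 build, 250 bases before to 50 bases after the annotated start of the gene, read 5′ to 3′ on the strand of the gene. They lie at chr1:106507842-106508141 on the plus strand for Ldha, chr3:77113264-77113563 on the plus strand for Pdk1, chr8:68953385-68953684 on the plus strand for Pkm and chrX:62547322-62547621 on the minus strand for Pdk3. Capitals mark the core letters of a hypoxia response element, ACGTG or GCGTG, on either strand. ACGTG overlaps the E-box CACGTG, which holds it on both strands and is then counted for each.
Ldha: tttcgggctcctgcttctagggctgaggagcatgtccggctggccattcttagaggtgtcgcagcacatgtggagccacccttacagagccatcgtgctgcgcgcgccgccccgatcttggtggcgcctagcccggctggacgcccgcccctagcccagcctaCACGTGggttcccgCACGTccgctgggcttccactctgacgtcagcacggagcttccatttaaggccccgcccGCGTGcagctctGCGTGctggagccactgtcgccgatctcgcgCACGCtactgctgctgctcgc
Pdk1: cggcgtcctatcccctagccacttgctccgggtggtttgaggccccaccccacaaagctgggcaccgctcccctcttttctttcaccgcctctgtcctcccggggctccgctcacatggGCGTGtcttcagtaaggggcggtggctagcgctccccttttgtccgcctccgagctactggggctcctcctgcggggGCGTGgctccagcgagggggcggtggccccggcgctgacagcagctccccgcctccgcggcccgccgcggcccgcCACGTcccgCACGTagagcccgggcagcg
Pkm: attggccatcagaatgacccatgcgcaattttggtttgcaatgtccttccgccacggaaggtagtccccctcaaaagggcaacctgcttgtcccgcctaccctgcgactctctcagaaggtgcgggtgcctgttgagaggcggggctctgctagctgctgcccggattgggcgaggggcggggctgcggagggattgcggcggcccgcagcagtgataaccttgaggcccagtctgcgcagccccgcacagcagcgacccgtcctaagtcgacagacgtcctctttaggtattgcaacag
Pdk3: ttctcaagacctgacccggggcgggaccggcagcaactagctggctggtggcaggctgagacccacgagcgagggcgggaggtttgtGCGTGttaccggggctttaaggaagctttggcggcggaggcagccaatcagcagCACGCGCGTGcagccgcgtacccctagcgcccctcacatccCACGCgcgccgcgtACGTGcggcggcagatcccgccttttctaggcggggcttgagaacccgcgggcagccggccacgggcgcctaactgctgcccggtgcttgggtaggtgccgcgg

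The core letters occurred 6 times in the Ldha window, 4 times in that of Pdk1 and 5 times in that of Pdk3, while the Pkm window held none. Of the other members, Slc16a1 had 4 matches, Pdk2 had 2, Ldhb had 1, and Slc16a3 and Pdk4 had none. Among all 33469 promoters of the same length, 41.6% held at least 1 match and 3.46% held 4 or more. These shares were not matched for base content, and enrichment was not tested. The windows of Ldha, Slc16a1, Pdk1 and Pdk3 had 66.7% to 72.7% G or C bases, and those of the other members 54.3% to 64.0%. Of the members called, Pdk1 rose with 4 matches, Pkm rose with none and Pdk3 fell with 5. A relation between matches and change was not tested. The matches are letters in a short window and do not show binding.

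Values are in TPM, transcript abundances corrected for transcript length that sum to 1000000 per sample, so levels of different genes can be set side by side. Depth is not kept in TPM, and no counting error can be given. Beta-cell identity was checked with 10 marker genes, the lowest of which had 17.4 TPM. Of these, Ins2, an insulin gene, fell from 13240 and 13340 TPM to 8957 and 9326 TPM (log2 fold change -0.58), Slc2a2, the glucose transporter gene of beta-cells, rose from 491 and 454 TPM to 626 and 654 TPM (log2 fold change 0.39), and the other 8 were not called. Of 14 listed markers of other cell types, 6 were at 0 in all samples, including Ptprc, Cdh5 and Pdgfrb, and 13 together summed to between 1.82 and 2.62 TPM. The remaining one, the alpha-cell hormone gene Gcg, had 41.9 and 73.8 TPM in 2D and 124 and 155 TPM in 3D culture, and its part in the results was not tested. For the comparison, TPM were summed per symbol, scaled between samples by factors from 0.960 to 1.02 and tested with limma on log2(TPM + 1) over the 11960 genes with a mean of at least 1 TPM. A gene was called when its adjusted p (Benjamini-Hochberg over these genes) was below 0.05. In all, 4541 genes (38.0%) were called, 2213 higher (18.5%) and 2328 lower (19.5%) in 3D culture. With 2 cultures in each group, the smallest two-sided p of an exact permutation test is 0.333, and the calls depend on limma's sharing of the variance between genes.

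Of the 9 members, 6 passed the expression filter, and 3 of these (50.0%) were called, beside the 38.0% of all genes tested. Pkm and Pdk1 rose, Pdk3 fell, and Ldhb, Slc16a1 and Pdk2 were not called. Ldha, Slc16a3 and Pdk4 were at or near 0 in both groups. The median log2 fold change of the 6 was 0.09, compared with -0.003 over all genes tested. In bulk RNA a change in the share of cells that express a gene and a change in the amount per cell cannot be told apart.

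**Figure D1:**
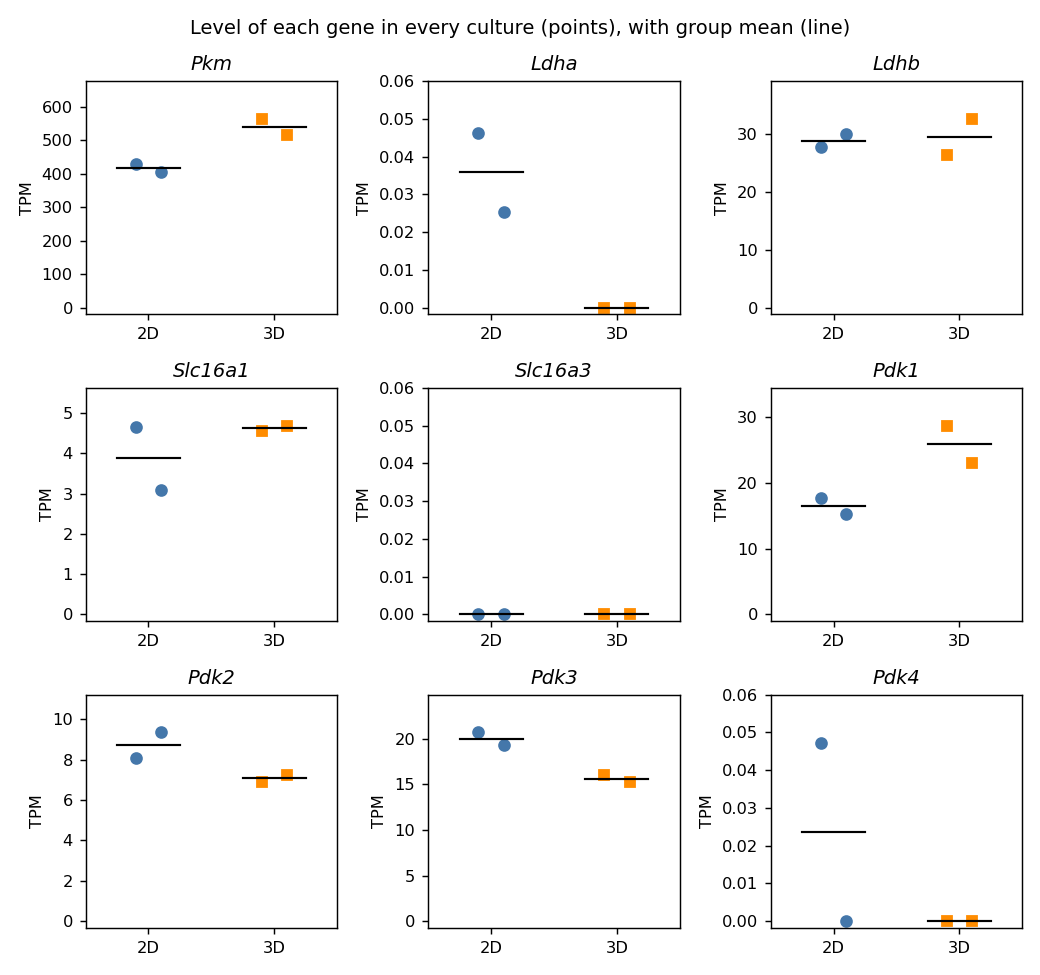
TPM of the 9 members in each culture, with circles for 2D monolayer, squares for 3D bioprinted culture and a line at the mean of 2 cultures. The vertical scale differs between genes and starts at 0. Pkm and Pdk1 lie higher and Pdk3 lies lower in both 3D cultures, while Ldha, Slc16a3 and Pdk4 do not exceed 0.0473 TPM in any culture.

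Pkm was by far the most abundant member. It had 428 and 403 TPM in the 2D cultures and 563 and 514 TPM in the 3D cultures, and the groups did not overlap. Lack of overlap in either direction was common, at 74.2% of all genes tested. The mean was 416 ± 17.5 TPM in 2D and 539 ± 34.6 TPM in 3D culture (SD, n = 2 each), a ratio of 1.30. Pkm rose by 0.33 on the log2 scale, with an SE of 0.070 and, by limma, an adjusted p of 0.0186, and 32.0% of all genes tested changed by more in either direction. When single cultures were left out, the log2 fold change stayed between 0.25 and 0.41. The adjusted p in limma was then 0.0585 without 2D replicate 2, 0.133 without 3D replicate 1 and 0.0557 without 3D replicate 2. The number of all genes called also dropped, to 136 without 3D replicate 1 and 1037 without 3D replicate 2.

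Pkm is spliced into the M1 and M2 forms of the enzyme by the choice between a pair of alternative exons. The files list 2 transcripts of the gene without saying which form each encodes. ENSRNOT00000015332.7 carried 83.8% and 86.3% of Pkm TPM in the 2D cultures and 84.9% and 85.5% in the 3D cultures. The shares overlapped between the groups, so a shift between the transcripts was not detected. This transcript had 359 and 348 TPM in 2D and 478 and 440 TPM in 3D culture (log2 fold change 0.31, adjusted p = 0.0395 in limma over the 15020 transcripts tested, of which 23.5% were called). No transcript of a member was called in limma with any single culture left out, where 2 to 6 of 8 had an unadjusted p below 0.05, and 1 was called without the filter or without the trend. The other, ENSRNOT00000083666.1, had 69.3 and 55.2 TPM in 2D and 85.2 and 74.8 TPM in 3D culture. Its log2 fold change of 0.30 was of similar size but was not called (adjusted p = 0.126 in limma). Division of short single-end reads between transcripts is an estimate.

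Among 8 factors that act on Pkm splicing, 1 rose and 2 fell, a share called of 37.5% beside 38.0% of all genes tested. Ptbp2, a relative of the splicing repressor PTBP1, rose from a mean of 14.0 ± 1.67 to one of 20.4 ± 0.625 TPM (SD, n = 2 each, log2 fold change 0.47, adjusted p = 0.0108 in limma). Ptbp1 itself, which represses the M1 exon, had 322 and 261 TPM in 2D and 347 and 343 TPM in 3D culture, which did not pass in limma (adjusted p = 0.111). Hnrnpa2b1, another repressor of that exon, had a log2 fold change of -0.23 and Rbm4 of -0.30 (adjusted p = 0.0354 and 0.0119 in limma). Neither Ptbp2, Hnrnpa2b1 nor Rbm4 was called when either 3D culture was left out, with adjusted p from 0.0635 to 0.201 in limma, and Hnrnpa2b1 was not called without 2D replicate 2 either (0.0905).

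Pklr encodes the liver-type pyruvate kinase and changed in the same direction as Pkm. Its levels were 101 and 102 TPM in 2D and 153 and 153 TPM in 3D culture, and the difference was 0.54 on the log2 scale, with an SE of 0.056 and, by limma, an adjusted p of 0.0045. When 3D replicate 1 was left out, this p became 0.0603 in limma. Pkm supplied 80.9% and 79.9% of the summed TPM of both genes in 2D and 78.7% and 77.1% in 3D culture. The groups did not overlap, with a difference of -2.49 percentage points (exact two-sided permutation p = 0.333, the smallest the design allows). Counted on the most abundant transcript of each gene, the difference was -0.378 percentage points. Pyruvate kinase transcript in total went from 517 ± 17.1 to 692 ± 34.2 TPM (SD, n = 2 each).

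Ldha, the subunit that most tissues rely on for lactate formation, had 0.0463 and 0.0253 TPM in the 2D cultures and was listed at 0 in both 3D cultures. Ldha was below the filter of the main fit. The counting error of values this close to 0 is not known, so no difference between the groups can be read from them. Ldhb, the subunit typical of heart, had 27.7 and 29.9 TPM in 2D and 26.4 and 32.6 TPM in 3D culture. The groups overlapped for Ldhb, and its log2 fold change was -0.014 (95% interval -0.29 to 0.27, adjusted p = 0.931 in limma). Ldhb therefore made up nearly all of the transcript of the pair, and the share of Ldha was 0.167% and 0.0844% in 2D and 0 in both 3D cultures. Among other lactate dehydrogenase genes, Ldhc was at 0 in all samples. Ldhd, a D-lactate dehydrogenase of mitochondria, had 3.85 and 3.32 TPM in 2D and 2.67 and 3.16 TPM in 3D culture (log2 fold change -0.26, adjusted p = 0.111 in limma).

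Reads of Ldha and Pkm can be shared with processed copies of these genes. The GRCr8 gene table names 30 pseudogenes of Ldha and 19 of Pkm. Matched by symbol, synonym or gene number, 1 of them was listed in the files, LOC100364062, a copy of Pkm, at 0.0736 and 0.0963 TPM in 2D and 0.165 and 0 TPM in 3D culture. None of the Ldha copies could be matched, and copies listed under other names were not traced, so the Ldha level is uncertain to that extent. Of 23 housekeeping genes, Gapdh had no row. None of the other 22 was at 0 in any sample, and their lowest value was 10.3 TPM. This list was written after the data were seen, so it cannot settle whether the Ldha level is correct.

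Of the plasma membrane transporters, MCT4 was listed at 0 in all 4 samples for both of its transcripts. Slc16a1, which encodes MCT1, had 4.64 and 3.10 TPM in 2D and 4.55 and 4.69 TPM in 3D culture. The groups overlapped, and the log2 fold change was 0.19 (95% interval -0.18 to 0.56, adjusted p = 0.343 in limma). A single culture decided this value: without 2D replicate 1 the log2 fold change was 0.39 (adjusted p = 0.0463 in limma) and without 2D replicate 2 it was -0.014. Slc16a7, which encodes MCT2, had 0.494 and 0.355 TPM in 2D and 1.49 and 2.09 TPM in 3D culture (log2 fold change 0.94, adjusted p = 0.0110 in limma). On the log2(TPM + 0.1) scale its log2 fold change was 1.80, and the ratio of the means was 4.21. It passed the filter only through its level in 3D culture and therefore had to differ between the groups. Bsg, the gene of basigin, which escorts MCT1 and MCT4 to the membrane, rose from 477 and 503 TPM to 620.0 and 641 TPM (log2 fold change 0.32, adjusted p = 0.0205 in limma). Its call was lost in limma without 3D replicate 1 (adjusted p = 0.126), without 3D replicate 2 (0.120) and without the filter (0.054). Emb, the gene of the related chaperone embigin, had 60.8 and 61.4 TPM in 2D and 59.3 and 61.4 TPM in 3D culture and was not called (adjusted p = 0.436 in limma).

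The PDH kinases moved in different directions. Pdk1 had 17.7 and 15.2 TPM in the 2D cultures and 28.7 and 23.1 TPM in the 3D cultures, with no overlap. Its mean went from 16.4 ± 1.75 to 25.9 ± 3.97 TPM (SD, n = 2 each). On the log2 scale this was the largest change among the 6 members tested. Pdk1 rose by 0.58 on the log2 scale, with an SE of 0.12 and, by limma, an adjusted p of 0.0177, and 10.3% of all genes tested changed by more. Its adjusted p was 0.0722 without 2D replicate 2, 0.0958 without 3D replicate 1 and 0.0546 without the expression filter in limma, with log2 fold changes from 0.42 to 0.74 over the cultures left out.

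Pdk3 fell from 20.7 and 19.3 TPM in 2D to 16.0 and 15.2 TPM in 3D culture, again without overlap. The log2 fold change was -0.38, with an SE of 0.067 and, by limma, an adjusted p of 0.0117. It ranged from -0.42 to -0.33 when cultures were left out. It did not pass without 3D replicate 1 (adjusted p = 0.0816 in limma) or without 3D replicate 2 (0.0918). Of its 2 listed transcripts, ENSRNOT00000076652.1 fell from 18.4 and 18.1 TPM to 14.3 and 12.5 TPM (log2 fold change -0.48, adjusted p = 0.0304 in limma), a call also lost when any single culture was left out. ENSRNOT00000017370.7 was scarce and overlapped between the groups, with 2.31 and 1.25 TPM in 2D and 1.78 and 2.68 TPM in 3D culture.

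Pdk2, the most widely expressed of these kinases, had 8.06 and 9.35 TPM in 2D and 6.89 and 7.25 TPM in 3D culture. Its groups did not overlap, as was the case for 74.2% of all genes tested. The log2 fold change was -0.30 (95% interval -0.57 to -0.03), and limma gave an adjusted p of 0.0727. Without 2D replicate 1 it passed, at an adjusted p of 0.0258 in limma. Pdk4, the kinase that fasting induces in muscle and liver, was at 0.0473 TPM in 2D replicate 1 and at 0 in the other 3 samples.

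The sum of the 4 kinases overlapped between the groups, with 46.5 and 43.9 TPM in 2D and 51.6 and 45.6 TPM in 3D culture. What differed was the make-up of this sum. Pdk1 supplied 38.0% and 34.7% of it in 2D and 55.6% and 50.7% in 3D culture, a difference of 16.8 percentage points. Pdk3 supplied 44.5% and 44.0% in 2D and 31.1% and 33.4% in 3D culture, and Pdk2 supplied 17.3% and 21.3% in 2D and 13.3% and 15.9% in 3D culture. None of these shares overlapped between the groups (exact two-sided permutation p = 0.333 each, the smallest possible). As parts of one sum, they are not separate results, since a larger share of Pdk1 leaves less for the others. Pdk2 itself was not called. The ratio of Pdk1 to Pdk3 was 0.854 and 0.787 in 2D and 1.79 and 1.52 in 3D culture, so that Pdk3 was the more abundant kinase in both monolayer cultures and Pdk1 in both 3D cultures. These shares do not depend on scaling between samples.

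**Figure D2:**
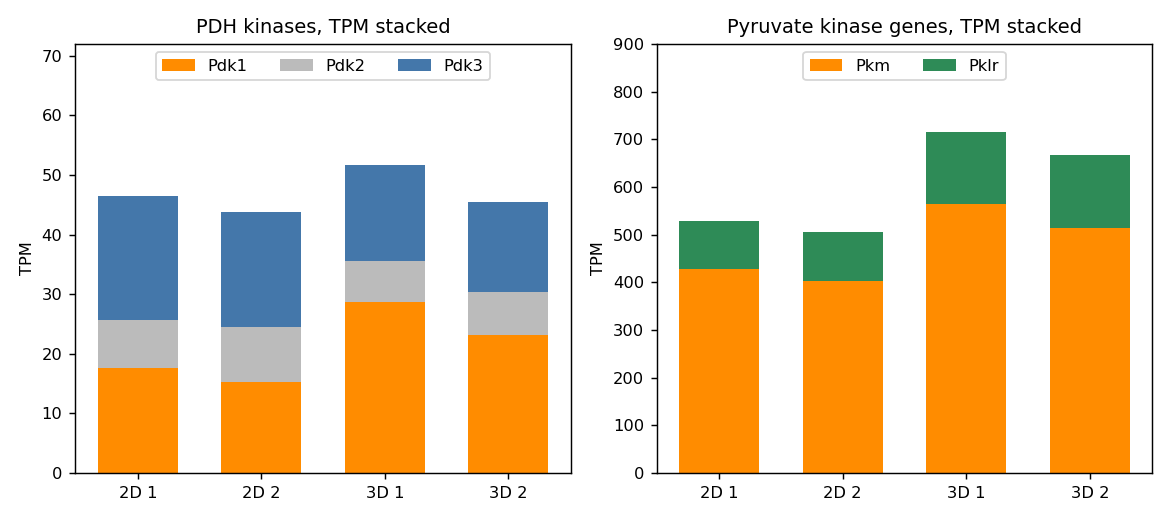
Stacked TPM of Pdk1, Pdk2 and Pdk3 (left) and of Pkm and Pklr (right) in each of the 4 cultures. Each bar is 1 culture and has no error bar. The kinase bars reach between 43.9 and 51.6 TPM with a larger Pdk1 part in 3D culture, and both pyruvate kinase genes are higher in 3D culture.

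In order of level, the 2D cultures had Pkm, Ldhb, Pdk3, Pdk1, Pdk2 and Slc16a1, and the ranges of neighbors in this order were separate. The order in 3D culture was Pkm, Ldhb, Pdk1, Pdk3, Pdk2 and Slc16a1. Here Ldhb and Pdk1 overlapped, at means of 29.5 and 25.9 TPM, and the other neighbors did not. Pdk4 could not be ordered against Ldha or Slc16a3 in 2D, where Ldha lay above Slc16a3, and all 3 were at 0 in 3D culture.

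The rest of the pyruvate pathway was described with a list of 27 genes, of which 26 were listed and 22 were tested. Of these, 4 rose and 4 fell, and the share called of 36.4% was close to the 38.0% of all genes. Slc16a7, one of those that rose, passed the filter only through 3D culture, and among the 21 genes with a mean of at least 1 TPM in both groups 33.3% were called. The median log2 fold change of the list was -0.07. Ldhc, Slc16a8, Pdha2 and Pck1 were at 0 in all samples, and Ldhal6b had no row. With 3D replicate 1 left out, none of the tested genes of this list was called in limma (7 of 21 had an unadjusted p below 0.05), and with 3D replicate 2 left out Pklr alone was called.

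Entry of pyruvate into mitochondria runs through the mitochondrial pyruvate carrier, and the genes of both of its subunits fell. Mpc1 had 114 and 103 TPM in 2D and 85.9 and 91.1 TPM in 3D culture (log2 fold change -0.34, adjusted p = 0.0112 in limma). Mpc2 had 107 and 116 TPM in 2D and 77.0 and 74.4 TPM in 3D culture (log2 fold change -0.59, adjusted p = 0.0065 in limma). The groups were separate for both genes, as for 74.2% of all genes tested, and the fall of Mpc2 was the largest of the list.

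Within the PDH complex, Pdhb rose, which encodes the beta subunit of the first enzyme. It had 93.5 and 93.9 TPM in 2D and 129 and 123 TPM in 3D culture (log2 fold change 0.38, adjusted p = 0.0097 in limma). Pdha1, the alpha subunit that the kinases phosphorylate, overlapped between the groups at 68.3 and 58.2 TPM in 2D and 66.0 and 61.5 TPM in 3D culture and was not called (adjusted p = 0.789 by limma). Dlat, Dld and Pdhx, which encode the other parts of the complex, had log2 fold changes of 0.08, -0.12 and -0.25 and were not called. The PDH phosphatase genes Pdp1 and Pdp2, whose products oppose the kinases, and Pdpr, which encodes their regulatory subunit, were not called either. Their levels were between 7.46 and 12.4 TPM, with log2 fold changes of -0.15, 0.12 and 0.31.

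Pyruvate is also the product of malic enzyme and the substrate of pyruvate carboxylase, which beta-cells use in place of lactate formation. Pc, the carboxylase gene, had 34.1 and 32.3 TPM in 2D and 33.7 and 31.4 TPM in 3D culture and was not called (log2 fold change -0.07, 95% interval -0.23 to 0.09, adjusted p = 0.420 in limma). Me1, the cytosolic malic enzyme, fell from 120 and 104 TPM to 93.3 and 94.8 TPM (log2 fold change -0.28, adjusted p = 0.0225 in limma), but did not pass on TPM without scaling (0.0646). Me2, a mitochondrial form, fell from 49.4 and 45.2 TPM to 35.0 and 38.7 TPM (log2 fold change -0.40, adjusted p = 0.0105 in limma). Me3, Pck2, Gpt and Gpt2, for the third malic enzyme, mitochondrial phosphoenolpyruvate carboxykinase and the alanine transaminases, were not called, with log2 fold changes from -0.29 to -0.04.

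**Figure D3:**
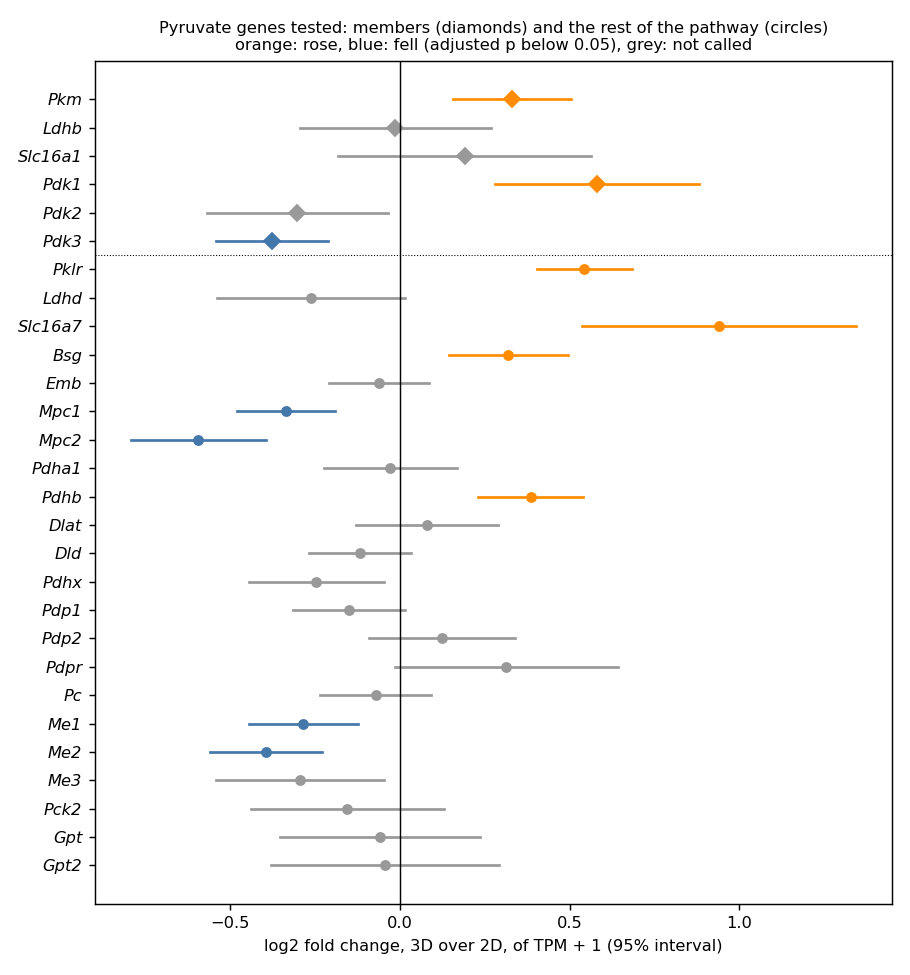
Log2 fold change of 3D over 2D culture on the log2(TPM + 1) scale for the 6 members tested (diamonds, top) and 22 other pyruvate genes (circles), with 95% intervals from limma. Genes that rose are orange, genes that fell are blue and genes not called are grey. Pdk1 and Pkm lie right of 0 with Pklr, Bsg, Pdhb and Slc16a7, which passed the filter only through 3D culture, while Pdk3 lies left of it with Mpc1, Mpc2, Me1 and Me2.

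A list of 18 genes described in the field as disallowed in beta-cells, which includes Ldha and Slc16a1, was examined beside the members. Of these, 8 had a mean below 1 TPM, and Arhgdib, Yap1 and Hk1 were listed at 0 in all samples. Hk1 encodes a hexokinase of high glucose affinity. Among the 10 genes tested, 1 rose and 3 fell (40.0% called), a share close to the 38.0% of all genes tested. Igfbp4, for a binding protein of insulin-like growth factors, rose from 13.5 and 15.3 TPM to 23.2 and 26.8 TPM (log2 fold change 0.71, adjusted p = 0.0081 in limma). Mgst1, Oat and Cat, for a microsomal glutathione transferase, ornithine aminotransferase and catalase, had log2 fold changes of -0.34, -0.31 and -0.25. These genes were clearly expressed in both groups. Mgst1 had 78.7 and 77.7 TPM in 2D and 65.1 and 61.7 TPM in 3D culture. Oat lay between 36.5 and 49.1 TPM and Cat between 9.98 and 12.0 TPM over all samples. Of these, Cat was close to the threshold (adjusted p = 0.0478 in limma) and passed in 2 of the 12 other settings. None of the genes tested was called in limma without 3D replicate 1 (2 of 10 had an unadjusted p below 0.05) or without 3D replicate 2 (3 of 9).

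Of 20 genes of glycolysis and the HIF response that share regulators with Ldha, Pdk1 and Slc16a3, 15 were tested, and 8 rose and 1 fell (60.0% called, beside 38.0% of all genes tested, 18.5% higher and 19.5% lower). Their median log2 fold change was 0.41. Pfkfb3, which encodes a regulator of phosphofructokinase, rose from 23.5 and 20.5 TPM to 82.6 and 84.8 TPM (log2 fold change 1.84, adjusted p = 0.0014 in limma). P4ha1, for a prolyl hydroxylase of collagen, had a log2 fold change of 1.71, Aldoc of 1.30 and Aldoa of 0.69. Ndrg1, also a known hypoxia-induced gene, fell from 154 and 151 TPM to 108 and 118 TPM (log2 fold change -0.47, adjusted p = 0.0062 in limma). Of this list, Slc2a3 was at 0 throughout, Hk2 did not exceed 0.0790 TPM, and Adm went from 0 in both 2D cultures to 0.526 and 0.614 TPM. Without 3D replicate 1, 3 of the 15 were called.

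Of 12 genes that regulate Pdk2 and Pdk4 or respond with them to fuel supply, 8 were tested, of which 2 rose and 2 fell (50.0% called, beside 38.0% of all genes tested). Ppargc1a, a coactivator of mitochondrial genes, rose from 1.02 and 0.714 TPM to 3.54 and 2.94 TPM (log2 fold change 1.16, adjusted p = 0.0057 in limma). Like Slc16a7, it passed the filter only through 3D culture, and without it 3 of 7 genes (42.9%) were called. Its log2 fold change was 1.76 on the log2(TPM + 0.1) scale. Foxo1, whose product activates Pdk4 in other tissues, rose from 10.8 and 9.32 TPM to 15.3 and 17.1 TPM (log2 fold change 0.60, adjusted p = 0.0075 in limma), while Pdk4 itself stayed at or near 0. Ucp2 and Esrra, for a mitochondrial carrier and an orphan nuclear receptor, had log2 fold changes of -0.32 and -0.25 (adjusted p = 0.0115 and 0.0294 in limma). Angptl4 was at 0 in all samples. Without 3D replicate 1, none of the 8 was called in limma (3 had an unadjusted p below 0.05), and without 3D replicate 2 only 1 was called.

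The genes most like Pdk1 in pattern were Armcx5, Vegfa and Lcp1, by the Euclidean distance of their centered log2 values over the 4 samples among 7617 genes with a mean of at least 10 TPM. Armcx5 was the nearest to Pdk1, at a distance of 0.0462, followed by Vegfa at 0.0846 and Lcp1 at 0.0885. Vegfa, which encodes the angiogenic factor VEGF-A, had 156 and 137 TPM in 2D and 243 and 214 TPM in 3D culture. For Pdk3 the nearest genes were Itgb1bp1 and Rab5if, at distances of 0.0199 and 0.0201. With 4 samples in 2 groups, many genes share such a pattern.

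**Figure D4:**
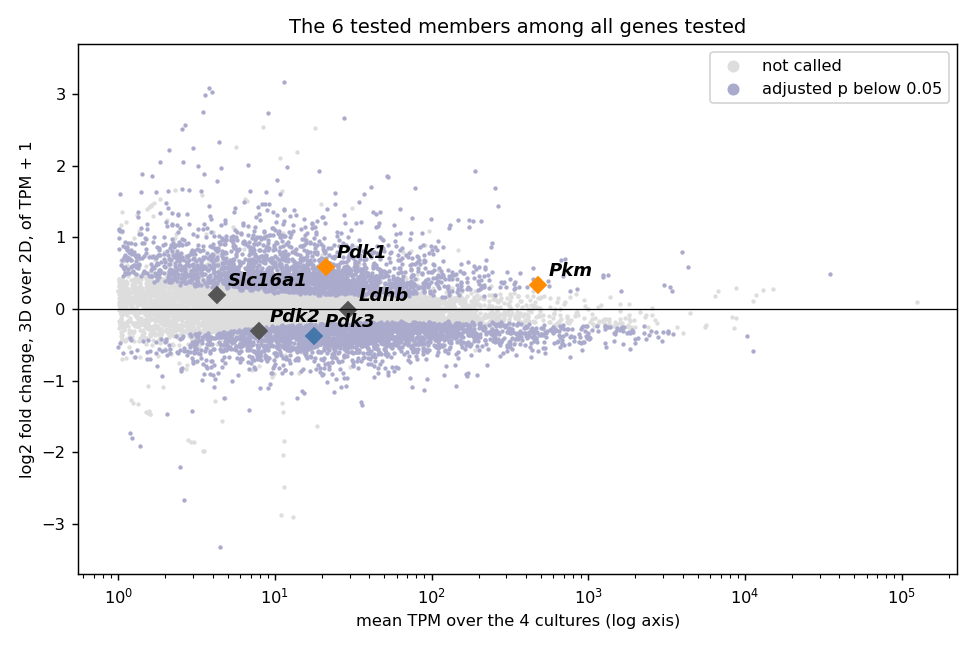
Log2 fold change of 3D over 2D culture against mean TPM (log axis) for the 11960 genes tested, as small points, with the 6 tested members as labelled diamonds in orange (rose), blue (fell) or dark grey (not called). All 6 members lie within the bulk of the genes, with Pdk1 at 0.58 and Pdk3 at -0.38 on the log2 scale.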

How the data were processed

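Stranded mRNA libraries of 4 INS-1 cultures were sequenced as single-end reads. The authors quantified transcripts with Salmon 1.2 (quality control with FastQC 0.11.8), against rn4 plus human insulin as stated, and deposited TPM for each transcript, written with decimal commas. Each sample summed to 1000000. The authors' own test at gene level used DESeq2 on estimated counts, which TPM alone do not give, and was not run here.

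TPM were summed per symbol. A gene entered the fit if its TPM averaged 1 or more. Scaling was by TMM without weights, leaving out the outer 30% of M and 5% of A values. On log2(TPM + 1), limma 3.58.1 was then run with an intensity trend in R 4.3.3. Fold changes on this scale understate changes of low genes. Transcripts were tested likewise. Levels are given as deposited, fold changes after scaling. Groups and replicates came from the sample titles. P-values of limma set a change against the spread between 2 cultures per group, moderated by the spread of other genes of similar level.

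All 9 members are named. The rule named up to 4 called genes in each direction of other lists and all tested genes of the pyruvate list. Of the housekeeping list, used only for genes at 0 or without a row, only Gapdh is named (1 of 22 tested rose and 8 fell). Values of 2 further genes are not reported here. The housekeeping list was written after the files were seen. Members and lists were chosen with earlier results of these data known. Whether same-numbered cultures were paired is not stated, and the main fit used no pairing. Deviations of same-numbered cultures had a correlation of -0.006 over genes, which cannot settle how they were grown. The steps were tested on simulated data in which far fewer genes changed than were called here, so that test does not cover the present share of calls. Alternatives were scaling, filter, pseudocount, empirical Bayes without trend, a replicate block, a threshold of 0.01 and each culture left out. The counts over genes with a mean of at least 1 TPM in both groups and the fit of single Pkm transcripts were chosen after seeing the data.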

Additional observations from a re-analysis of the deposited data

How the results depend on the processing

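With 2 cultures per group, precision is limited by their number, and TPM keep no depth. Unless stated, values are log2 fold changes or counts of called genes in limma. With single cultures left out, which leaves 1 culture in a group that is assumed to vary like the others, the calls ranged from 136 to 4515 over all genes, 0 to 5 among the members, 0 to 9 among other pyruvate genes, 0 to 5 among disallowed genes, 0 to 5 among Pkm splicing factors, 3 to 9 in the HIF and glycolysis list, 0 to 4 among Pdk regulators and 0 to 0 among member transcripts (at an unadjusted p below 0.05, 3 to 5 members and 2 to 6 transcripts). The fold changes then ranged from 0.25 to 0.41 for Pkm, 0.42 to 0.74 for Pdk1, -0.42 to -0.33 for Pdk3, -0.43 to -0.17 for Pdk2, -0.15 to 0.12 for Ldhb, -0.014 to 0.39 for Slc16a1, -0.11 to 0.046 for Pdha1, -0.004 to 0.16 for Dlat, -0.20 to 0.08 for Gpt and -0.23 to 0.13 for Gpt2. The share of Ldha then differed by -0.167 to -0.0844 percentage points and that of Pkm by -3.31 to -1.67. At an adjusted p below 0.01, 1418 genes were called, 3 other pyruvate genes, 1 disallowed gene, 2 Pdk regulators and 0 members, splicing factors or member transcripts (4 members, 3 splicing factors and 4 transcripts had an unadjusted p below 0.05), so that Pkm (0.33), Pdk1 (0.58) and Pdk3 (-0.38) were not called. Without scaling, 2 disallowed genes were called, and Ldhb (0.029) and Pdha1 (0.014) changed sign, as did Ldhb with a mean TPM of at least 5 (0.011). Without the filter, Pdk1 (0.54) was not called and 1 member transcript was, as was 1 with empirical Bayes without trend. The replicate block, with a number not known to pair the samples, called 4 members, Pdk2 among them (-0.30, adjusted p = 0.0453 in limma), and 4814 genes. The Pkm share on the most abundant transcripts differed by -0.378 percentage points. The cause of these changes was not tested.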

Other observations

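The liver-type pyruvate kinase gene Pklr, which rose together with Pkm, is listed with 2 transcripts that changed by different amounts. ENSRNOT00000027700.6 had 85.1 and 84.2 TPM in 2D and 111 and 114 TPM in 3D culture (log2 fold change 0.34, adjusted p = 0.0215 by limma). ENSRNOT00000065791.2 had 16.1 and 17.6 TPM in 2D and 41.3 and 39.5 TPM in 3D culture (log2 fold change 1.16, adjusted p = 0.0159 by limma). The share of this second transcript in the gene was 15.9% and 17.3% in 2D and 27.1% and 25.8% in 3D culture, without overlap. For Pkm, the shares of the 2 transcripts overlapped between the groups. The difference between the transcripts of Pklr was seen in the data and was not tested itself.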
